A study of Mus musculus with 9 samples.

Results

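Zinc enters and leaves the cytosol through a pair of transporter families and is buffered there by metallothioneins, and 10 mouse genes of these kinds were followed here across ESCs and both kinds of EpiSC culture. They are Slc39a8, Slc39a14, Slc39a1, Slc39a4, Slc39a6, Slc39a7 and Slc39a10 of the ZIP family of importers, the exporter gene Slc30a1, and the metallothionein genes Mt1 and Mt2. The genes were chosen by name, in a list drawn up with earlier results of these arrays known, among them the ESC minus vehicle difference of Slc39a8, so counts and medians over the 10 are descriptions. They were 10 of 18193 genes tested, and 20 of the 34945 probe sets with a single gene symbol belonged to them. The probe set of each gene was selected on its mean signal over the 9 arrays, the brightest one being used and the others serving as a check. All 10 entered the tests, which used no filter on low signal.

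ESCs, the first group, stand for the naive pluripotent state and grew on gelatine in N2B27 containing 1000 U/ml LIF plus Wnt3a (250 ng/ml). The second group was EpiSCs, primed pluripotent cells, with IWP2, a compound that blocks the acyltransferase Porcupine and so the release of Wnt proteins. The third was EpiSCs with vehicle. Both EpiSC groups grew on plates coated with gelatine and FCS, in N2B27 containing Activin A (20 ng/ml) plus bFGF (12 ng/ml). All groups carry the strain label C57BL/6 and hold 3 arrays each, called biological replicates. The labels state neither the dose and duration of IWP2 nor the cell lines nor the zinc content of the media. Their treatment text, common to all samples, also mentions Wnt3a after IWP2, a condition that none of the group labels used here names. Cell type and medium changed together between ESCs and EpiSCs and cannot be told apart. All values are log2 probe set signals from Affymetrix mouse expression arrays, and a difference of 1 is 2-fold. The lower quartile of all values, 3.72, is used below as the floor of the array. With 3 arrays a group, their number limits the precision.

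The groups carried their labels in marker genes. Of 9 naive markers, 9 were higher in ESCs than in vehicle EpiSCs (limma adjusted p under 0.05), against 38.7% of all genes. In both EpiSC groups 4 of them (Zfp42, Tbx3, Nr0b1 and Prdm14) were at or below the floor. Of 6 primed epiblast markers, 6 were lower in ESCs, against 27.9% of all genes, and Fgf5 was at the floor in ESCs. Replicate arrays of a group correlated at 0.997 to 0.998 across all probe sets, and ESC with EpiSC arrays at 0.927 to 0.931.

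ZIP proteins (Slc39 genes) carry zinc into the cytosol, from outside the cell or from organelles. ZnT proteins (Slc30 genes) carry it the other way. Metallothioneins are small cysteine-rich proteins that bind zinc and copper. When zinc is ample, the zinc finger factor Mtf1 binds metal response elements in promoters and switches on Mt1, Mt2 and Slc30a1 in mouse cells, while Slc39a10 is known to be held down by the same factor.

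The 10 genes fell into several orders over the 3 groups. In 4 genes (Mt1, Mt2, Slc30a1 and Slc39a4) ESCs were highest, vehicle EpiSCs next and IWP2 EpiSCs lowest. In 2 genes (Slc39a8 and Slc39a10) the order ran the opposite way. Slc39a14 was low with IWP2 alone, Slc39a7 was highest with vehicle, and Slc39a1 and Slc39a6 varied little. The comparisons share arrays, so they are not independent of each other.

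**Figure D1:**
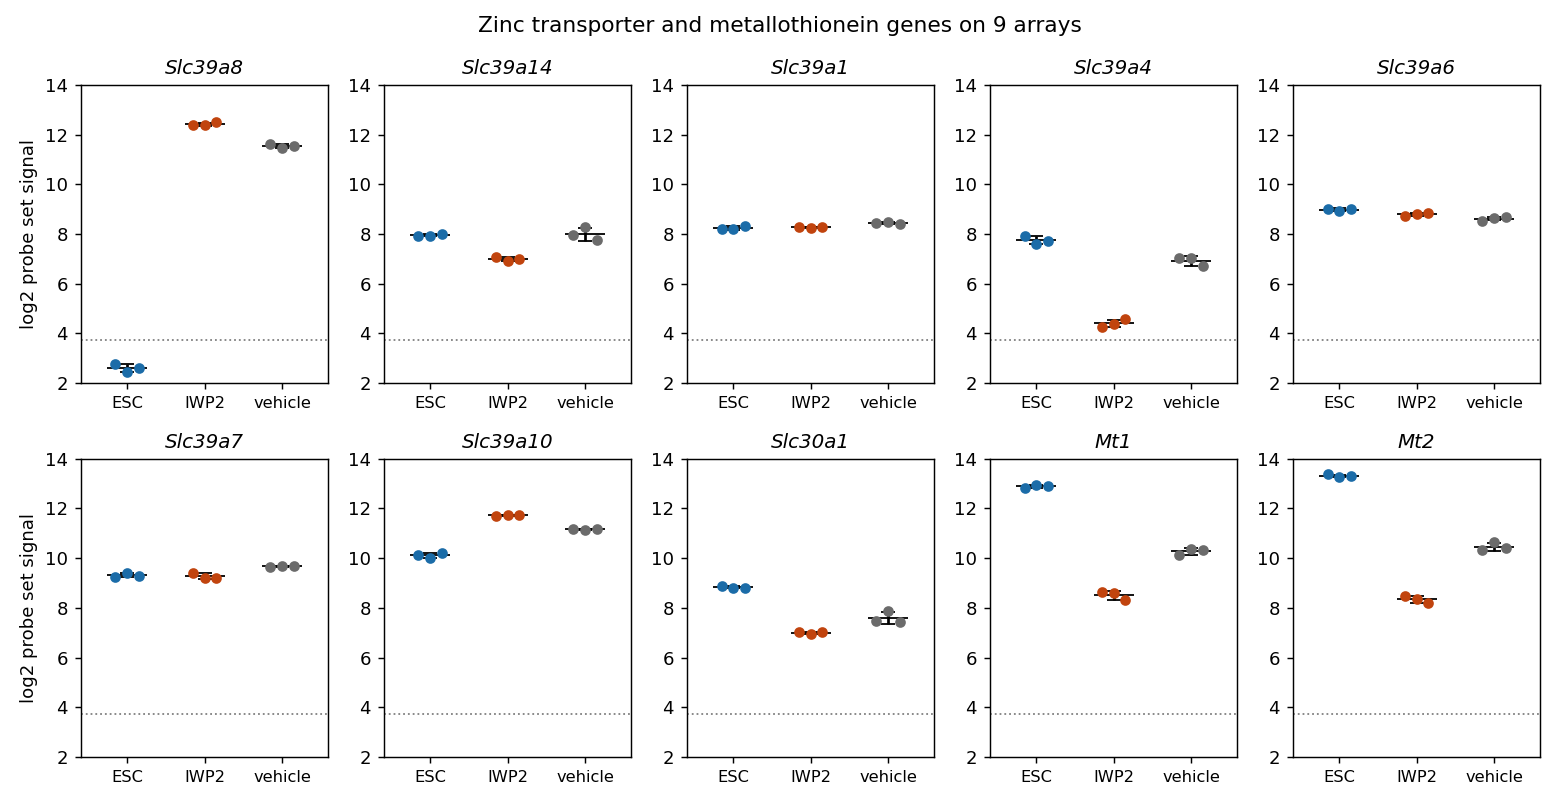
Log2 probe set signal (vertical axes) of the 10 genes in ESCs, EpiSCs with IWP2 and EpiSCs with vehicle, with a point per array, a bar at the mean ± SD (n = 3) and the array floor of 3.72 as a dotted line. Mt1 and Mt2 lie highest in ESCs and lowest with IWP2, Slc39a8 lies under the floor in ESCs, and Slc39a4 comes near it with IWP2.

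The metallothionein genes had their highest signals in ESCs and their lowest in IWP2 EpiSCs. The promoters of Mt1, Mt2 and Slc30a1, the genes of the list known to be switched on through metal response elements, are shown first. Each runs from 250 bases before the start of transcription to 50 after it, on the plus strand of GRCm38.p6, as RefSeq gives it. Capitals mark the core of the metal response element, searched as TGCACNC and TGCGCNC on both strands. They lie at chr8:94178839-94179138 (Mt1), chr8:94172368-94172667 (Mt2) and chr1:191906531-191906830 (Slc30a1). The starts used are those of the promoter table (94179089, 94172618 and 191906781), and for Mt1 and Slc30a1 they lie inside the gene spans given below, which begin further upstream.
Mt1: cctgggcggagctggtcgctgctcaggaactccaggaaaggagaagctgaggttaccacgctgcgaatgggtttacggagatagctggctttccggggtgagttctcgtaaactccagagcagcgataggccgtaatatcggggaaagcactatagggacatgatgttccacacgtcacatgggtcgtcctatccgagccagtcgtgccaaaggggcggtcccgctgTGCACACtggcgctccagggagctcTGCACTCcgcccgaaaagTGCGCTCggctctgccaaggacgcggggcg
Mt2: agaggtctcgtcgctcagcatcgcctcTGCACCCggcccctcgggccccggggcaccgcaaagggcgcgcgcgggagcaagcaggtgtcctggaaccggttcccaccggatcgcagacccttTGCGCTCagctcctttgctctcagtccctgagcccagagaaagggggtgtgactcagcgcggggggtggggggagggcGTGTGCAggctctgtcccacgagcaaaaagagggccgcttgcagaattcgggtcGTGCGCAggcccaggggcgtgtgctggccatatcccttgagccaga
Slc30a1: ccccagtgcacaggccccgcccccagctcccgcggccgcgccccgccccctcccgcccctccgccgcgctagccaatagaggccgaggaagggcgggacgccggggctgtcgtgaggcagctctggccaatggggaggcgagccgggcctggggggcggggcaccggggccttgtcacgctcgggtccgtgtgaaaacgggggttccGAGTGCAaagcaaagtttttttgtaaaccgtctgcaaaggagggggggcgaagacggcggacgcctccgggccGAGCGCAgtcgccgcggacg

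The Mt1 window held 3 such cores, the Mt2 window 4 and the Slc30a1 window 2, with no overlap between cores. Of 32851 promoter windows of 300 bases in the RefSeq table, 25.7% held at least 1 core, 7.11% at least 2, 1.97% at least 3 and 0.517% at least 4. Of the other members, windows were at hand for Slc39a1, Slc39a7, Slc39a8 and Slc39a10. Slc39a1, Slc39a7 and both windows of Slc39a10 had 0 cores, and of the 2 windows of Slc39a8 one had 0 and one had 1. A match in letters is a description and not evidence of binding, and a window with none says nothing about Mtf1.

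Mt1 (chr8:94178883-94180327) had signals of 12.82, 12.94 and 12.90 in ESCs, of 8.63, 8.60 and 8.30 in IWP2 EpiSCs and of 10.12, 10.35 and 10.33 in vehicle EpiSCs. No array of any group overlapped another group. The mean in ESCs was higher than in vehicle EpiSCs by 2.62 ± 0.098 (SE), a 6.13-fold difference (limma adjusted p = 5.81e-09). With IWP2 the mean fell by 1.76 ± 0.098 (SE) relative to vehicle (limma adjusted p = 8.53e-07). Between ESCs and IWP2 EpiSCs the gap was 4.38, or 20.8-fold (limma adjusted p = 1.52e-10). In bulk RNA, fewer cells with a transcript and less of it per cell cannot be told apart.

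The Mt1 values rest on a probe set of the _s_at type, whose probes can match more than 1 transcript, and its other probe set gave smaller differences. That probe set averaged 5.21 over the 9 arrays. It read 6.36, 6.63 and 6.28 in ESCs, 4.58, 4.58 and 4.39 in IWP2 EpiSCs and 4.62, 4.72 and 4.72 in vehicle EpiSCs. ESCs were higher than vehicle EpiSCs on it by 1.74 ± 0.095 (SE; limma adjusted p = 7.8e-08), and than IWP2 EpiSCs by 1.91 (limma adjusted p = 3.61e-08). The IWP2 minus vehicle difference was -0.17 ± 0.095 (SE) and was not called (limma adjusted p = 0.229), so the fall of Mt1 with IWP2 depends on the probe set. In both EpiSC groups this dimmer probe set lay close to the floor of 3.72, which limits the size of a difference between them. As the mean of both probe sets, Mt1 differed by 3.14 for ESC minus IWP2 and by -0.96 for IWP2 minus vehicle. How far Mt2 transcripts add to the brighter Mt1 probe set was not tested.

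Mt2 lies next to Mt1 (chr8:94172618-94173567) and has a single probe set, without that suffix. Its signals were 13.37, 13.27 and 13.28 in ESCs, 8.49, 8.35 and 8.21 in IWP2 EpiSCs and 10.33, 10.64 and 10.41 in vehicle EpiSCs. The groups were again apart on every array. ESCs exceeded vehicle EpiSCs by 2.85 ± 0.095 (SE), or 7.21-fold (limma adjusted p = 2.5e-09). The IWP2 minus vehicle difference was -2.11 ± 0.095 (SE; limma adjusted p = 1.91e-07), and ESCs were 31.1-fold above IWP2 EpiSCs (limma adjusted p = 5.44e-11). Ranked by the root mean square difference over the 9 arrays, each gene centred on its own mean, Mt2 stood at place 5 of 11917 genes in likeness to Mt1, at 0.253. This rank rests on the _s_at probe set of Mt1 and was not computed for the dimmer one. The 2 metallothionein genes of other tissues stayed low. Mt3, known from brain, differed by 0.27 and Mt4, known from stratified epithelium, by 0.35 between ESCs and vehicle EpiSCs (limma adjusted p = 0.0294 and 0.0156), with Mt4 under the floor in all groups and Mt3 at means of 4.64 to 4.93.

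Slc30a1 (chr1:191906697-191913248), which encodes the plasma membrane zinc exporter, followed the order of the metallothioneins with smaller steps. Signals were 8.87, 8.80 and 8.79 in ESCs, 7.03, 6.95 and 7.02 in IWP2 EpiSCs and 7.48, 7.86 and 7.41 in vehicle EpiSCs. Vehicle replicate 2 was the highest vehicle array here, as it was for Mt1, Mt2 and Slc39a14, and the groups did not overlap. ESCs were 2.36-fold above vehicle EpiSCs (difference 1.24 ± 0.103 SE, limma adjusted p = 2.58e-06), and IWP2 EpiSCs were lower than vehicle EpiSCs by a difference of -0.58 ± 0.103 (SE; limma adjusted p = 0.00186). The IWP2 minus vehicle value was -0.45 without vehicle replicate 2 (limma adjusted p = 0.000873). The other probe set of the gene gave 1.27 and -0.39 for these comparisons, both called. Mtf1, the zinc sensor itself, was also highest in ESCs. Its mean was 7.13 ± 0.101 in ESCs, 6.44 ± 0.047 in IWP2 EpiSCs and 6.78 ± 0.163 in vehicle EpiSCs (SD, n = 3). The ESC minus vehicle difference of 0.35 and the IWP2 minus vehicle difference of -0.34 were called (limma adjusted p = 0.00528 and 0.0146).

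Slc39a10 and Slc39a8 were the members with the reverse order, highest with IWP2 and lowest in ESCs. Slc39a10 (chr1:46807544-46925776) encodes a plasma membrane zinc importer. It read 10.13, 10.01 and 10.19 in ESCs, 11.68, 11.73 and 11.75 in IWP2 EpiSCs and 11.16, 11.15 and 11.16 in vehicle EpiSCs. The spread within groups was small beside the steps between them. ESCs were lower than vehicle EpiSCs by a difference of -1.05 ± 0.059 (SE; limma adjusted p = 1.3e-07), and IWP2 EpiSCs were higher than vehicle EpiSCs by 0.56 ± 0.059 (SE; limma adjusted p = 7.14e-05). The other probe set gave -0.93 and 0.58.

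Slc39a8 (chr3:135816882-135888572), whose protein imports zinc, manganese and cadmium, was strong in EpiSCs and under the floor in ESCs. Its signals were 2.77, 2.44 and 2.63 in ESCs, 12.38, 12.37 and 12.50 in IWP2 EpiSCs and 11.61, 11.46 and 11.55 in vehicle EpiSCs. The ESC minus vehicle difference was -8.93 and the ESC minus IWP2 difference -9.80. These are given without a test, since the pattern was known when the gene was listed. With the floor in place of the ESC mean they would be -7.82 and -8.70, and after adding 32 to every linear signal they were -6.30 and -7.17. The other probe set also lay under the floor in ESCs, at 2.73, 2.42 and 2.98, against 8.52, 8.53 and 8.58 in vehicle EpiSCs. Within EpiSCs, IWP2 raised Slc39a8 by 0.88 ± 0.087 (SE), or 1.83-fold (limma adjusted p = 4.68e-05), and by 1.03 on the other probe set.

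The 5 genes whose pattern over the 9 arrays was most like that of Slc39a8 were Klhl4, Eif2s3y, Prss23, Sox4 and Fndc3c1, at root mean square differences of 0.171, 0.945, 1.34, 1.45 and 1.54 among 11917 genes. The arrays fall into 3 groups, so this likeness is mainly one of group means. Klhl4 averaged 2.15 in ESCs, 11.7 in IWP2 EpiSCs and 10.8 in vehicle EpiSCs. Eif2s3y is on the Y chromosome and Klhl4 and Fndc3c1 are on the X, while Slc39a8 is on chromosome 3. Eif2s3y averaged 2.29 in ESCs, 9.82 in IWP2 EpiSCs and 9.83 in vehicle EpiSCs, so the ESC and EpiSC cultures also differed in the signal of this Y-linked gene. Other Y-linked genes were not examined. The part of a difference in Y-linked signal in the values of Slc39a8 was not tested. Slc39a14, a close relative of Slc39a8 in sequence, stood at place 9687 in likeness. The measure was not scaled for the size of a change. The highest and lowest group means were 0.996 apart for Slc39a14 and 9.80 apart for Slc39a8.

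**Figure D2:**
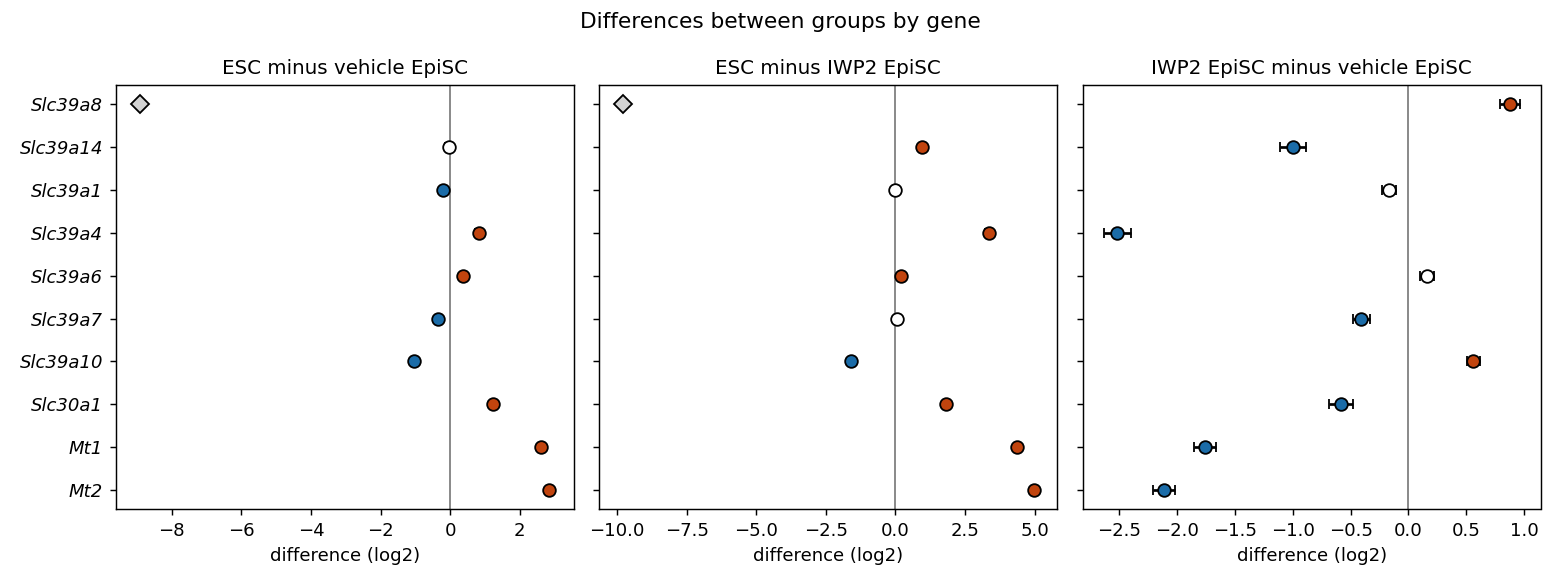
Differences in log2 signal (horizontal axes, a different range in each panel) for ESC minus vehicle EpiSC, ESC minus IWP2 EpiSC and IWP2 EpiSC minus vehicle EpiSC, with bars of 1 SE. Red circles were called higher, blue circles lower and open circles not called at an adjusted p under 0.05, and grey diamonds are the differences of Slc39a8 given without a test. Slc39a8 reaches -8.93 and -9.80 in the ESC comparisons, and Mt2 and Mt1 lie furthest right there.

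Slc39a4, the importer of dietary zinc in the intestine, which is also found in the visceral yolk sac of the mouse, was the zinc transporter of the list that fell most with IWP2. Signals of this gene (chr15:76612383-76618506) were 7.94, 7.61 and 7.72 in ESCs, 4.268, 4.399 and 4.564 in IWP2 EpiSCs and 7.03, 7.04 and 6.70 in vehicle EpiSCs. The IWP2 arrays lay close to the floor of 3.72, which limits the size of the difference. IWP2 EpiSCs were lower than vehicle EpiSCs by a difference of -2.51 ± 0.119 (SE), a 5.71-fold fall (limma adjusted p = 2.77e-07). ESCs were above vehicle EpiSCs by 0.83 ± 0.119 (SE; limma adjusted p = 0.000156) and 10.2-fold above IWP2 EpiSCs, a difference of 3.35. After adding 32 to every linear signal, the IWP2 minus vehicle difference was -1.53 and the ESC minus IWP2 difference 2.22, both called. The gene has a single probe set on the array.

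Slc39a14 (chr14:70303467-70351452), which encodes an importer of zinc, manganese and non-transferrin iron, was lower with IWP2 than in both other groups. It read 7.94, 7.91 and 7.99 in ESCs, 7.07, 6.92 and 7.004 in IWP2 EpiSCs and 7.96, 8.27 and 7.76 in vehicle EpiSCs. ESCs and vehicle EpiSCs overlapped, with a difference of -0.05 ± 0.111 (SE; limma adjusted p = 0.719). The IWP2 minus vehicle difference was -0.996 ± 0.111 (SE; limma adjusted p = 0.000108), and -0.86 without vehicle replicate 2. All 4 probe sets of the gene were called lower with IWP2, from -0.453 to -0.996, and none of the 4 was called between ESCs and vehicle EpiSCs.

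The other 3 importer genes moved by at most 0.41 in any comparison. Slc39a7 (chr17:34028266-34031690), whose protein releases zinc from the endoplasmic reticulum, read 9.24, 9.40 and 9.29 in ESCs, 9.40, 9.21 and 9.19 in IWP2 EpiSCs and 9.64, 9.70 and 9.67 in vehicle EpiSCs. It was lower than in vehicle EpiSCs both in ESCs (-0.36 ± 0.072 SE, limma adjusted p = 0.00147) and with IWP2 (-0.41 ± 0.072 SE, limma adjusted p = 0.00184). Its one probe set is of the _s_at type.

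Slc39a6 (chr18:24579881-24603817), known for its part in cell movement in the zebrafish gastrula, read 9.02, 8.92 and 8.997 in ESCs, 8.74, 8.79 and 8.84 in IWP2 EpiSCs and 8.54, 8.66 and 8.67 in vehicle EpiSCs. ESCs were higher than vehicle EpiSCs by 0.35 ± 0.061 (SE; limma adjusted p = 0.000559). The ESC minus IWP2 difference of 0.19 was called (limma adjusted p = 0.0212) but lost its call when ESC replicate 1 or 3, or IWP2 replicate 1 or 2, was left out, with values of 0.16 to 0.19 in those fits. IWP2 minus vehicle was 0.16 and not called (limma adjusted p = 0.0634). The other probe sets of Slc39a6 gave 0.18, 0.40 and 0.23 for ESC minus vehicle, all called. For ESC minus IWP2 they gave 0.10, 0.20 and 0.23, and only the last was called. For IWP2 minus vehicle they gave 0.08, 0.20 and -0.005, none called. The last of these probe sets lay under the floor on every array.

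Slc39a1 (chr3:90248190-90253613), a widely expressed importer of the plasma membrane, read 8.21, 8.19 and 8.34 in ESCs, 8.30, 8.25 and 8.28 in IWP2 EpiSCs and 8.46, 8.48 and 8.40 in vehicle EpiSCs. The ESC minus vehicle difference of -0.20 ± 0.058 (SE) was called (limma adjusted p = 0.0124) but was -0.12 and not called after repeated quantile normalization (limma adjusted p = 0.112). With IWP2 the difference was -0.17 ± 0.058 (SE; limma adjusted p = 0.0511), just outside the threshold of 0.05.

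**Figure D3:**
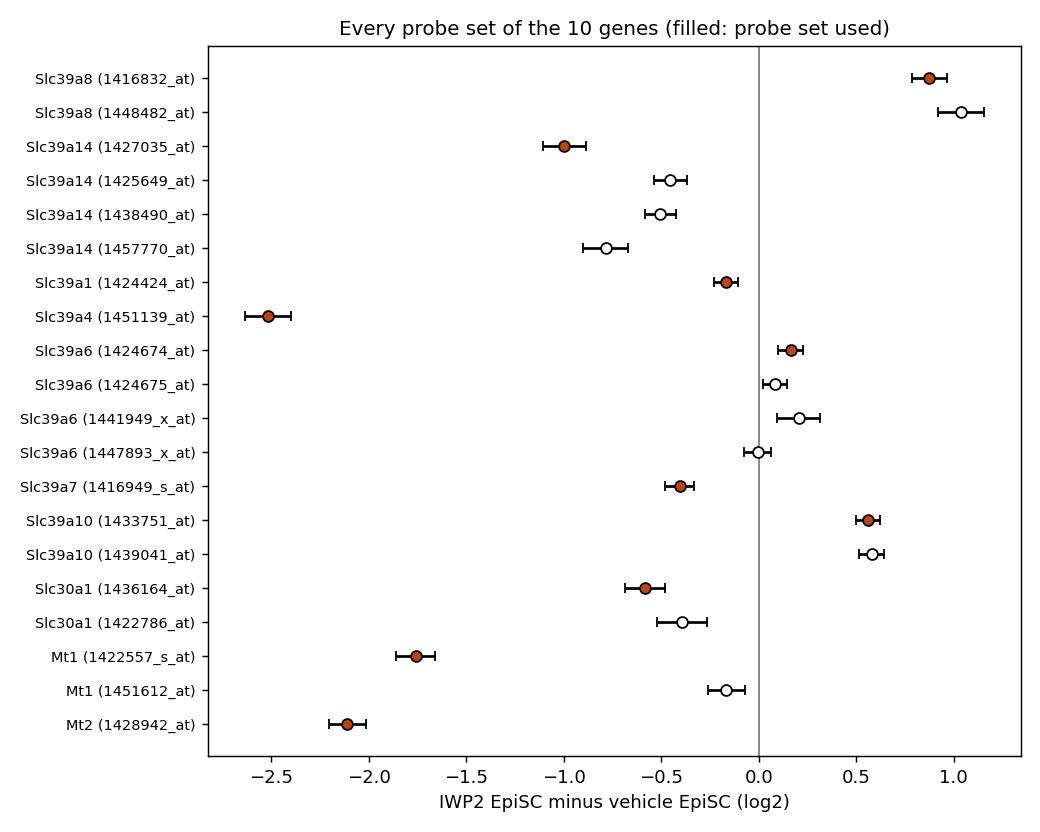
Difference in log2 signal between IWP2 and vehicle EpiSCs (horizontal axis, bars of 1 SE) for the 20 probe sets of the 10 genes, filled where the probe set was used and open where it served as a check. The probe sets of Slc39a8, Slc39a10, Slc39a14 and Slc30a1 lie on the same side of 0 gene by gene, while those of Mt1 differ in size (-1.76 and -0.17).

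Slc39a8 is left out of the counts for the ESC comparisons, since its ESC minus vehicle difference was known when it was listed, a choice made after the values were seen. With it, the counts of called genes were 9 and 8 of 10. Between ESCs and vehicle EpiSCs, 8 of the other 9 genes were called, where 66.6% of all genes were. Of these, 5 were higher and 3 lower in ESCs, against 38.7% and 27.9% of all genes. Differences of at least 2-fold were seen in 3 genes that were higher (Mt1, Mt2 and Slc30a1, against 6.87% of all genes) and 1 that was lower (Slc39a10, against 9.63%), with 16.5% of all genes in either direction. The arrays of both groups did not overlap in 8 of these 9 genes, and in 71% of all genes.

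Between ESCs and IWP2 EpiSCs, 7 of the 9 were called, against 62.1% of all genes. Of these, 6 were higher and 1 lower in ESCs, against 35.2% and 26.9%. By at least 2-fold, 4 were higher (Mt1, Mt2, Slc30a1 and Slc39a4) and 1 lower (Slc39a10), against 7.87% and 9.4% of all genes and 17.3% in either direction. Arrays did not overlap in 7 of the 9, and in 67.1% of all genes.

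Between IWP2 and vehicle EpiSCs, 8 of the 10 were called, against 33.5% of all genes. Of these, 2 were higher and 6 lower with IWP2, against 16.6% and 16.8%. Mt1, Mt2 and Slc39a4 fell by at least 2-fold, as 2.81% of all genes did, and 0 rose by that much, as 0.901% of all genes did, which makes 3.72% in either direction. On the dimmer probe set of Mt1 the difference was -0.17 and not called. Arrays did not overlap in 10 of the 10 genes, and in 47% of all genes. The median absolute difference without Slc39a8 was 0.83 for ESC minus vehicle, 1.61 for ESC minus IWP2 and 0.58 for IWP2 minus vehicle, against 0.33, 0.31 and 0.15 over all genes. Since the list was chosen with results known, these shares are a description of it. All 10 genes had a highest group mean at or above the median of all values, 5.24, while the shares of all genes include genes of lower signal. A fit on genes with a mean at or above that median called 10 members and 5845 genes for IWP2 minus vehicle. The share called among genes of like signal was not computed.

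Marker genes of several cell types were counted for IWP2 minus vehicle, where 33.5% of all genes were called (16.6% higher and 16.8% lower). The called shares were 100% of definitive endoderm, 40% of extraembryonic endoderm, 50% of primitive streak and mesoderm and 33.3% of trophoblast markers. They were 60% for neurectoderm, 66.7% for primed epiblast and 71.4% for fibroblast or feeder markers. The extraembryonic endoderm and trophoblast shares lay near that of all genes. Of 8 definitive endoderm markers, 8 were lower with IWP2 than with vehicle, and their summed linear signal was 141 to 155 on IWP2 arrays and 4499 to 5271 on vehicle arrays, with Gsc, Cxcr4 and Lhx1 at the floor after IWP2. On ESC arrays that sum was 173 to 181. Of 10 extraembryonic endoderm markers, 4 were lower with IWP2 and 0 higher, with sums of 220 to 235 on IWP2 arrays and 527 to 600 on vehicle arrays, and with Sox7 at the floor in both. That fall was carried by Gata6, also an endoderm factor of the embryo proper, at 4.29 ± 0.070 with IWP2 and 8.28 ± 0.196 with vehicle (SD, n = 3). The other 3 called markers (Hnf4a, Apoa1 and Lama1) differed by -0.42 to -0.53, and without Gata6 the sums were 202 to 214 on IWP2 arrays and 233 to 255 on vehicle arrays. Of 6 primitive streak and mesoderm markers, 2 were lower (Eomes, -3.62, and Mixl1, -1.18) and 1 higher with IWP2, with sums of 181 to 212 on IWP2 arrays and 552 to 777 on vehicle arrays. Of 6 trophoblast markers, 2 were lower (Krt7, -3.19, and Gata3, -2.03) and 0 higher, with sums of 117 to 130 on IWP2 arrays and 272 to 314 on vehicle arrays. Of 5 neurectoderm markers, 2 were higher (Ncam1, 0.89, and Tubb3, 0.73) and 1 lower (Six3, -1.70), with sums of 623 to 676 on IWP2 arrays and 440 to 486 on vehicle arrays. Of the 6 primed epiblast markers, 3 were lower with IWP2, led by Krt18 (-3.15) and Fgf5 (-2.48), and 1 was higher. Of 7 fibroblast or feeder markers, 3 were lower and 2 higher with IWP2, with sums of 376 to 436 on IWP2 arrays and 554 to 783 on vehicle arrays. The part of these cell types in the lower signals of Slc39a4, Slc39a14, Mt1, Mt2 and Slc30a1 with IWP2 was not tested. In the ESC minus vehicle comparison Mt1, Mt2, Slc30a1 and Slc39a4 were higher and Slc39a14 was not called (-0.05). There 8 of the 8 definitive endoderm markers were lower, against 27.9% of all genes. Cell type and medium changed together in that comparison, so it does not tell the part of these cell types with IWP2.

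The rest of the transporter families came from a list of all further ZIP and ZnT genes. Of 7 other ZIP genes, 4 were higher and 2 lower in ESCs than in vehicle EpiSCs (85.7% called, against 66.6% of all genes), with Slc39a12, 1 of the 4, under the floor in every group. Slc39a3 and Slc39a11 were higher by 1.05 and 1.03 (limma adjusted p = 1.42e-06 and 7.99e-08). Slc39a2 was lower by a difference of -1.26 and Slc39a9 by -0.28. With IWP2, 3 of the 7 fell and 0 rose (42.9% called, against 33.5% of all genes). Slc39a2, a relative of Slc39a1 and Slc39a3, had 4.11 ± 0.39 with IWP2 and 5.60 ± 0.035 with vehicle (SD, n = 3; difference -1.49, limma adjusted p = 7.85e-05), and Slc39a9 and Slc39a11 differed by -0.29 each. Between ESCs and IWP2 EpiSCs, 3 of the 7 were higher in ESCs and 0 lower (42.9% called, against 62.1% of all genes), with Slc39a11 at 1.32 and Slc39a3 at 0.86.

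Of 9 other ZnT genes, 3 were higher and 4 lower in ESCs than in vehicle EpiSCs, and 4 were higher and 3 lower in ESCs than in IWP2 EpiSCs. That is 77.8% in either comparison, against 66.6% and 62.1% of all genes. Slc30a2, a vesicular transporter known from mammary gland, had 6.52 ± 0.094 in ESCs, 4.29 ± 0.129 in IWP2 EpiSCs and 3.97 ± 0.289 in vehicle EpiSCs (SD, n = 3), the last near the floor (ESC minus vehicle 2.56, limma adjusted p = 6.56e-08). Slc30a4, a zinc transporter of endosomes whose loss gives the lethal milk mouse, had 6.31 ± 0.212 in ESCs, 8.62 ± 0.038 in IWP2 EpiSCs and 8.37 ± 0.048 in vehicle EpiSCs (SD, n = 3; ESC minus vehicle -2.06, limma adjusted p = 2.71e-08). Slc30a7, a transporter of the Golgi, was lower in ESCs than in vehicle EpiSCs by a difference of -0.62, and Slc30a9 was lower in ESCs than in IWP2 EpiSCs by a difference of -0.53. Slc30a5 was slightly higher in ESCs, by 0.14 and 0.29. With IWP2, 1 of the 9 was called (11.1%, against 33.5% of all genes). It was Slc30a6, which forms a pair with Slc30a5 in the secretory pathway (-0.40, limma adjusted p = 0.00342). Arrays of IWP2 and vehicle EpiSCs did not overlap in 5 of the 9, and in 47% of all genes. The median absolute difference of the 9 was 0.21, against 0.15 over all genes. Slc30a8 lay under the floor in every group.

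**Figure D4:**
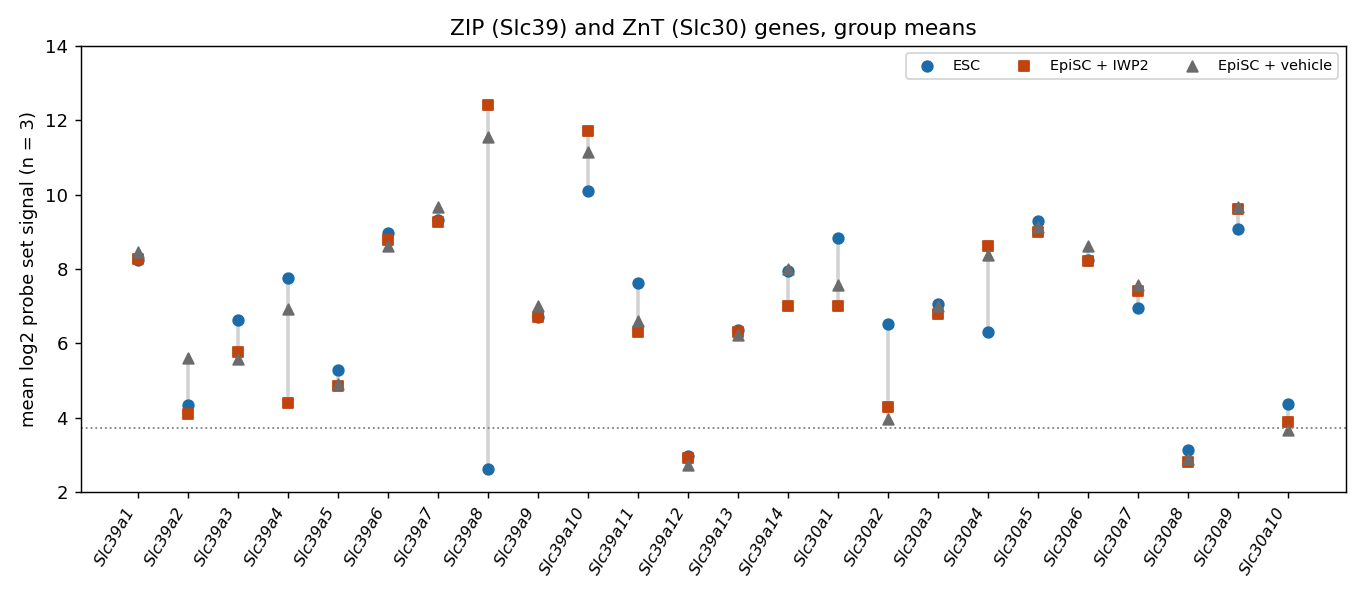
Mean log2 signal (n = 3) of the 14 ZIP and 10 ZnT genes in ESCs (circles), IWP2 EpiSCs (squares) and vehicle EpiSCs (triangles), with a grey line over the range of the 3 means and the array floor of 3.72 dotted. Levels can be compared within a gene and not between genes. Slc39a8 spans 9.80 and Slc39a4 3.35, and Slc39a12 and Slc30a8 lie under the floor.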

How the data were processed

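The authors deposited log2 signals of 45101 probe sets on 9 arrays, made with RMA, per the submitters' processing notes, which also list limma and give no versions. In RMA the background is corrected, arrays are quantile-normalized and probes summarised, so changes in the total RNA of a cell are hidden, and no detection calls are kept. Names of probe sets came from the platform annotation, and genes and positions through the RefSeq table of GRCm38.p6, where 10 of the 10 genes were found. Samples were grouped by title. Group means were fitted to all 9 arrays with limma 3.58.1 in R 4.3.3 (lmFit, eBayes; 6 degrees of freedom, 9.58 when moderated), two-sided, with Benjamini-Hochberg adjustment over 18193 genes. Called means an adjusted p under 0.05. The median SE of a difference was 0.0819. The fit was tested on simulated data. Alternatives included other probe sets, an offset of 32 added to linear signals, other normalizations and leaving out arrays.

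Members, lists and tests were chosen with earlier results of these data known. Named genes were the 10 members, the 5 nearest in pattern to Slc39a8 (highest group mean at or above 5.24, the median of all values) and, of each further list, up to 2 called genes with the largest difference per direction whose higher mean reached 5.24. Slc39a12, Slc30a8, Mt3, Mt4 and the marker genes given with values were named outside that rule, after their values were seen. Counts without Slc39a8, marker sums without Gata6 and the floor-based value of Heph were also added after seeing the data. p-values measure the spread between arrays, and a spread between cell lines or scan batches was not examined.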

Additional observations from a re-analysis of the deposited data

How the results depend on the processing

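Of 30 member differences (10 genes in 3 comparisons), 14 kept their side of the threshold under every alternative run. Of 687 alternative values, 22 lost a call, 11 gained one and 0 changed sign with a call in either fit. Differences without a call did change sign, as for Slc39a14 in ESC minus vehicle (-0.17 to 0.09) and Slc39a1 in ESC minus IWP2 (-0.08 to 0.03). Limma's treat, with a least change of 2-fold, called 3 of the 10 genes, Slc39a8 included in these counts, for ESC minus vehicle, 6 for ESC minus IWP2 and 3 for IWP2 minus vehicle, and 2148, 2279 and 345 genes in all, against 12123, 11298 and 6094. At an adjusted p under 0.01, IWP2 minus vehicle held 3886 genes in all and 8 members. Fewer calls follow from the construction of both. Without _x_at and _s_at probe sets the Mt1 difference for IWP2 minus vehicle was -0.17 (limma adjusted p = 0.213, and 6.03e-10 to 0.213 over its alternatives), and Slc39a7 was not measured. The Slc39a1 difference for ESC minus vehicle lost its call with cyclic loess too (-0.15). Leaving out single arrays gave 9 members for ESC minus vehicle, 7 to 8 for ESC minus IWP2 and 8 to 9 for IWP2 minus vehicle, and 11077 to 12115, 10565 to 11323 and 4949 to 5965 genes in all. Same-numbered replicates did not clearly deviate together (r from -0.0596 to 0.0507, against -0.104 to 0.066 for unlike numbers). With 3 arrays a group this does not exclude that replicates were prepared in matched sets. With the replicate block the counts were 9, 8 and 8 members and 12024, 11138 and 5754 genes. Signals near 3.72 compress differences, as for Slc39a8 in ESCs and Slc39a4 with IWP2.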

Other observations

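Genes for other metals were also counted, in comparisons where 66.6% (ESC minus vehicle: 38.7% higher and 27.9% lower) and 33.5% (IWP2 minus vehicle) of all genes were called. Of 14 measured iron genes, 7 were higher and 7 lower in ESCs than in vehicle EpiSCs. The iron exporter gene Slc40a1 (ferroportin) had 4.62 ± 0.173 in ESCs, 6.51 ± 0.055 in IWP2 EpiSCs and 7.48 ± 0.095 in vehicle EpiSCs (SD, n = 3). Heph, a ferroxidase that works with it, was under the floor in ESCs, at 3.38 ± 0.163, against 7.93 ± 0.008 in vehicle EpiSCs (SD, n = 3). The difference of Heph was -4.54 (limma adjusted p = 5.42e-11). With the floor in place of the ESC mean it would be -4.21, which was not tested. Ncoa4, the receptor for breakdown of ferritin, was higher in ESCs by 0.99 and lower with IWP2 than with vehicle by a difference of -0.64. With IWP2, 3 iron genes rose and 5 fell, which is 57.1% of the list.

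Of 10 copper genes, 6 were higher and 3 lower in ESCs than in vehicle EpiSCs (90%, against the same 66.6% of all genes). Ccs, the copper chaperone of superoxide dismutase, was higher by 1.45 (limma adjusted p = 5.92e-08) and the importer gene Slc31a1 lower, at -1.04 (limma adjusted p = 1.4e-07). With IWP2, 1 rose (Slc31a1, 0.28) and 3 fell (40%, against 33.5%). NRF2 response genes, several of which react to oxidants as metallothioneins do, were split in ESCs, with 5 higher and 4 lower of 9 (100%, against 66.6%). Nqo1 (2.27) and Srxn1 (1.74) were higher and Hmox1 (-0.62) and Gclc (-0.53) lower. With IWP2, 2 rose (Gclm and Gclc, 0.37 and 0.34) and 5 fell (77.8%, against 33.5%), led by Srxn1 (-0.70, limma adjusted p = 0.000302).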
